A study of Mus musculus with 4 samples.

Results

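The genes described here are 37 genes of epithelial cell junctions and cell polarity, read in sorted mouse mammary tumor cells. They were chosen by symbol from the deposited table of 24043 rows, and fall into 12 tight junction, 8 adherens junction and adhesion, 9 desmosome, 6 polarity and trafficking and 2 gap junction genes. Of the 37 symbols 36 have a row, and Patj was found under its older symbol Inadl. The cells came from tumors of MMTV-PyMT female mice, whose mammary epithelium expresses the polyoma middle T oncogene. All mice carried the R26Y (Rosa26-Stop-YFP) reporter, and an adenovirus with Cre under the Krt8 promoter (Ad-K8-Cre) was injected into their ducts, so that YFP marks cells in which Cre has acted. YFP+ cells were sorted 2 to 3 months later. There were 2 libraries titled Lsd1 knockout, for mice whose Lsd1 alleles (Lsd1L/L) can be deleted by Cre, and 2 titled Lsd1 wild-type (Lsd1+/+). The design sets tumor cells without LSD1, a histone lysine demethylase encoded by Kdm1a, against tumor cells that have it. The labels do not say that libraries came from separate animals, so the spread between libraries may be technical.

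Epithelial cells are held together by several kinds of junction. Tight junctions, built from claudins, occludin and related membrane proteins on a scaffold of ZO proteins, seal the space between neighbouring cells. Adherens junctions join cells through E-cadherin and nectins, which are tied to actin by catenins and afadin, and desmosomes join the keratin filaments of neighbours through desmogleins, desmocollins and plakins. The Crumbs, Par and Scribble complexes set the apical and basal sides of the cell, and in luminal mammary cells they place the tight junctions below the apical surface that faces the duct.

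The targeted gene was examined first. Kdm1a was at 20.2 and 22.8 FPKM in the knockout-labelled libraries, and at 52.5 and 22.9 FPKM in the wild-type libraries, where FPKM is a read level scaled by transcript length and library total. Knockout-labelled library 2 and wild-type library 2 were level, and the difference was within the spread of the wild-type pair (-0.67 in mean log2(FPKM + 1), SE 0.46, n = 2 each; limma, adjusted p = 0.34). For both samples titled knockout the tissue entry also reads Lsd1+/+, so they are called knockout-labelled. Depth differed little: scaled to library 2 labelled knockout, the steps between the lowest values gave a depth of 0.93 for library 1 labelled knockout, and 1.03 and 0.85 for wild-type libraries 1 and 2. A read on a transcript of 1 kilobase was worth 0.0420 to 0.0497 FPKM.

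The libraries differed in their makeup. Luminal keratins and Epcam, which define luminal epithelial cells, were present in all 4 libraries, Krt8 at 255 and 259 FPKM in those labelled knockout and at 4653 and 929 FPKM in wild-type. Lymphocyte markers, such as Cd3d of the T cell receptor complex, were higher in both knockout-labelled libraries than in both wild-type libraries for 15 of 15 genes, 14 of which rose in the test described further on, and their summed level was 2539 and 2443 FPKM against 21.7 and 101 FPKM. The macrophage and dendritic list summed to 1482 and 1380 FPKM in the knockout-labelled libraries, and to 432 and 13785 FPKM in wild-type. The endothelial list summed to 25.3 and 26.0 FPKM in the knockout-labelled libraries and to 39.9 and 305 FPKM in wild-type. None of the 5 tested luminal keratins, 7 endothelial and 9 fibroblast genes passed the test described further on. At an unadjusted p under 0.05 (limma), 5 keratins, 3 endothelial and 2 fibroblast genes were lower, and 1 fibroblast gene, Thy1, was higher. Of 7 tested basal genes Acta2 fell, of 13 macrophage and dendritic genes Ccr7 rose, and of 9 neutrophil genes Camp, Mmp8 and Ngp rose. Mmp8 passed the filter of that test only through the knockout-labelled libraries. The calls of Mmp8 and Camp ended when 0.1 rather than 1 was added to FPKM (limma, adjusted p = 0.054 and 0.055). Ccr7 was at 379 and 354 FPKM in the knockout-labelled libraries, within the sum of its list, and at 4.50 and 14.7 FPKM in wild-type. In the knockout-labelled libraries Flt3 was at 1.04 FPKM in each and Xcr1 at 0.52 and 0.59 FPKM. The part of lymphocytes, whose markers were higher in the same libraries, in the level of Ccr7 was not tested. Of 9 tested housekeeping genes Eef1a1 and Tbp rose, 1 fell and 6 did not pass. The call of Tbp also ended with 0.1 added (limma, adjusted p = 0.052). Among the markers, Krt20 was listed at 0 in all but 1 library, and the dendritic genes Flt3 and Xcr1 and the neutrophil collagenase gene Mmp8 in wild-type library 1; the others were above 0 in all 4. In bulk samples such as these, fewer cells of a type and less RNA per cell cannot be told apart. The part of these other cells in the results on junction genes was not tested.

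**Figure D1:**
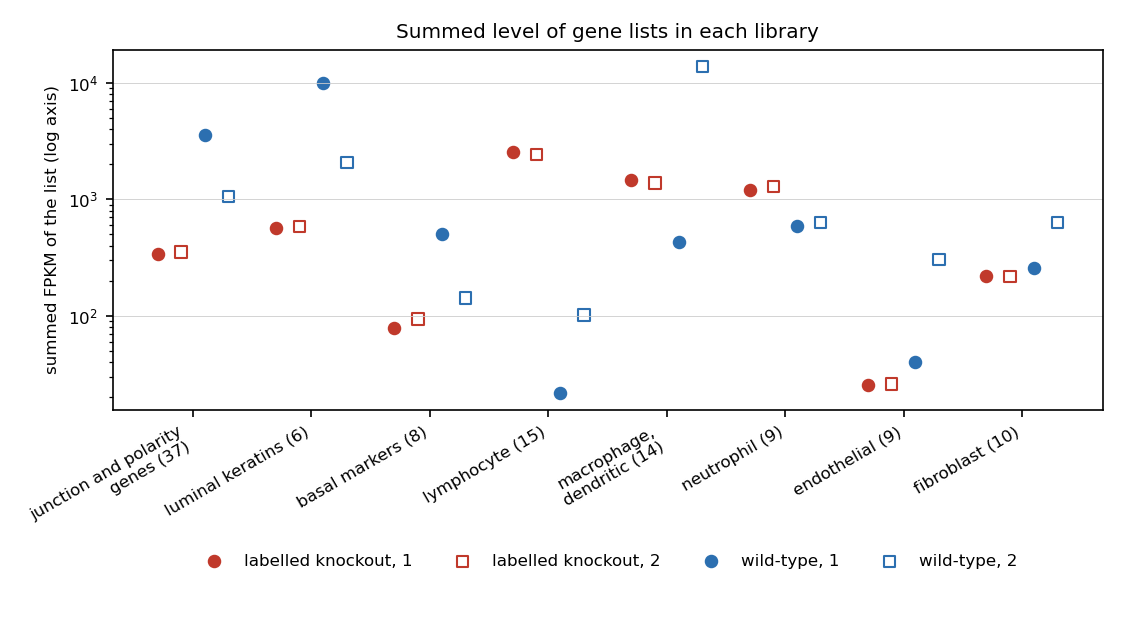
Summed FPKM (log axis) of the junction and polarity genes and of 7 marker lists in each library, with list sizes in parentheses; red marks the knockout-labelled libraries and blue the wild-type libraries. The junction genes summed to 339 and 355 FPKM in the knockout-labelled libraries and to 3567 and 1055 FPKM in wild-type, in the same order of libraries as the luminal keratins.

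Promoters of 5 of the genes are shown, because the E-box hexamer CACCTG, which reads CAGGTG on the other strand, is the sequence that the repressors Snai1, Snai2, Zeb1 and Zeb2 are known to bind in epithelial junction genes. F11r and Pvrl2 passed the test of the difference between groups, Epcam and Cldn4 are among the most abundant of the 37 genes, and Rab25 holds a pair of hexamers close together. All 5 hold the hexamer, so they do not stand for the genes without it. Each line gives the 250 bases before the start of transcription, 5′ to 3′ on the gene's strand, from RefSeq on GRCm38.p6, with the hexamer in capitals.
F11r: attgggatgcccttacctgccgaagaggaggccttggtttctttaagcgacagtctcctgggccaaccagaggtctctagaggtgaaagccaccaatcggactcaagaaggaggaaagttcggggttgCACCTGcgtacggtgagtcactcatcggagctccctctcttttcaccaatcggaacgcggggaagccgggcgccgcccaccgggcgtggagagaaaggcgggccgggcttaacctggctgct
Pvrl2: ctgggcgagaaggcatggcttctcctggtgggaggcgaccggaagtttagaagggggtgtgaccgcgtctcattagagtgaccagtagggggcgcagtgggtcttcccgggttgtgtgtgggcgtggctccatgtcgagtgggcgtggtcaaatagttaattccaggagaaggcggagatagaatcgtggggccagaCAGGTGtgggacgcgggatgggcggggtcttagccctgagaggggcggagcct
Epcam: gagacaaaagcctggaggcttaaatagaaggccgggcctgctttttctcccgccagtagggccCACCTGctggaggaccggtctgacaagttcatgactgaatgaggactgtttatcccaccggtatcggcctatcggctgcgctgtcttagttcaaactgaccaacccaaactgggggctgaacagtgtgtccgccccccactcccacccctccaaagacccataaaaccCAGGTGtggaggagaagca
Cldn4: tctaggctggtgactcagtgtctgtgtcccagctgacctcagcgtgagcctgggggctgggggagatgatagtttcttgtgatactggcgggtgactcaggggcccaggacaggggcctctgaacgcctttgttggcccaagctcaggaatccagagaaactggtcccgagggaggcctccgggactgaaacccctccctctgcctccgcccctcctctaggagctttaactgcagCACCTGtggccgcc
Rab25: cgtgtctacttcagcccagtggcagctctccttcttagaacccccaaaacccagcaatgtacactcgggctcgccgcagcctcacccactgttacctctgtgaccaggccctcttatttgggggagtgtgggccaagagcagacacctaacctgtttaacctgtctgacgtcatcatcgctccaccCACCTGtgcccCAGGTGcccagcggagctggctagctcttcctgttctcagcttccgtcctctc

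The windows lie at chr1:171437311-171437560 on the plus strand, chr7:19749574-19749823 on the minus strand (under the current symbol Nectin2), chr17:87635729-87635978 on the plus strand, chr5:134946935-134947184 on the minus strand and chr3:88548280-88548529 on the minus strand. Counted to the first base of the hexamer, with -1 just before the start, it stood at -122 in F11r, at -53 in Pvrl2, at -187 and -19 in Epcam, at -14 in Cldn4 and at -64 and -53 in Rab25. RefSeq starts were matched for 24 of the 37 genes, and 13 of these 24 genes (54.2%) held the hexamer before at least 1 start, against 19.4% of all 27025 genes in the table and 18.3% of the 8340 tested genes matched there. By starts, 15 of 34 (44.1%) held it, against 17.2% of 32851. The others with the hexamer were Cldn7, Ocln, Tjp3, Crb3, Patj, Pard3, Pard6b and Gjb2. Cldn3, Tjp1 and Ctnnd1, which passed the test, held none in this window, and Patj, which had its higher values in the knockout-labelled libraries, held it at -19 before 1 of 3 starts. Ctnna1, which also passed, and Cdh1 had no matched start, so their promoters were not read. A match of letters is not a measured binding site.

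Across the 37 genes, levels were mostly lower in the knockout-labelled libraries. In 30 genes both knockout-labelled libraries were below both wild-type libraries, in 1 (Patj) both were above, and in 6 the groups overlapped; relative to luminal keratins, given further on, 4 genes were lower. For the test, genes that reached 1 FPKM in 2 or more libraries were compared with limma, a linear model with variances moderated across all genes, with Benjamini-Hochberg adjusted p under 0.05 as the threshold. The filter passed 31 of the 37 genes, 6 of them (Cldn8, Marveld3, Tjp1, Cgn, Dsg2 and Pard3) only through the wild-type libraries, so counts over these 31 cannot stand for the whole list. Of the 31, 6 fell, none rose and 25 did not pass (of the 31, 18 were lower and 1 higher at an unadjusted p under 0.05), while among all 11138 tested genes 16.5% passed, 6.99% lower and 9.51% higher. By position alone, both knockout-labelled libraries were below both wild-type libraries in 27 of the 31, against 32.1% of all tested genes, and above in 1, against 39.3%. The median difference of the 31 genes was -2.04 on the log2(FPKM + 1) scale and that of all 37 was -1.81, against 0.08 for all tested genes.

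The number of genes that passed moved with the library left out. Without library 1 or library 2 labelled knockout 0 of the 31 genes passed (limma; 6 and 7 at an unadjusted p under 0.05) and 0 of all tested genes passed. Without wild-type library 1, 25 of 31 passed as lower and 2 as higher, against 32.0% and 37.3% of all tested genes, and without wild-type library 2, 30 passed as lower and 1 as higher, against 32.7% and 38.3%; there wild-type is 1 library, which the fit takes to vary like the knockout-labelled pair. The wild-type libraries also differed from each other: all 37 genes were higher in wild-type library 1 than in wild-type library 2, and 31 of the 31 tested ones, against 51.8% of all tested genes. The median ratio of wild-type library 1 to library 2 was 3.45 over the 37 genes and 1.03 over all tested genes, while that of library 1 to library 2 labelled knockout was 0.87 and 0.98.

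**Figure D2:**
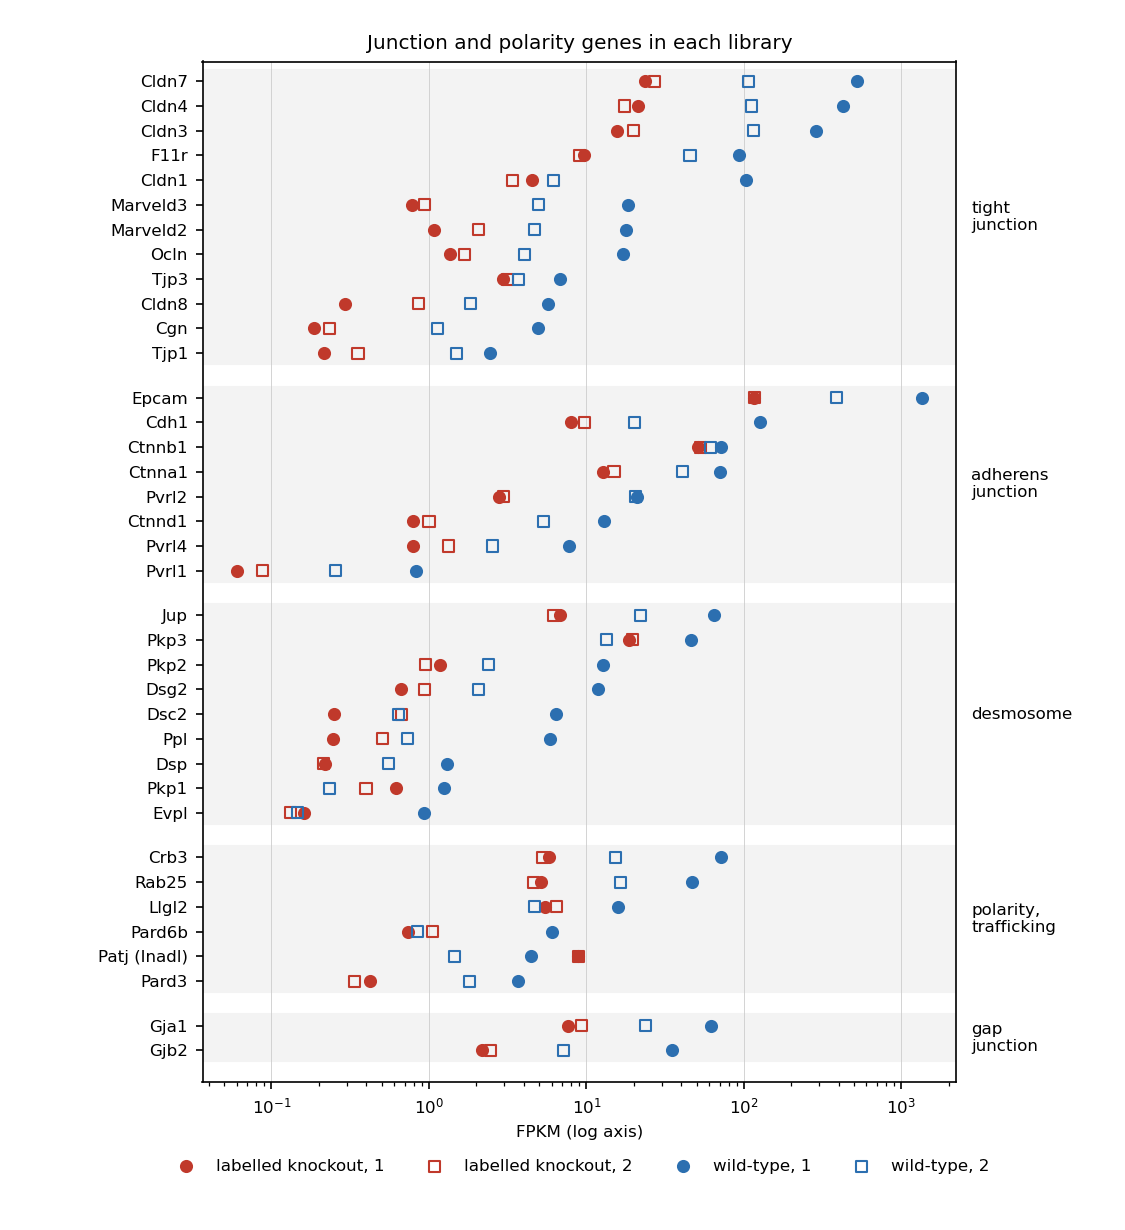
FPKM (log axis) of each of the 37 genes in each library, by junction type and ordered by the wild-type mean; red circles and squares are libraries 1 and 2 labelled knockout, blue ones wild-type libraries 1 and 2. The red points lie left of both blue ones in 30 genes, and Patj is the gene with both red points to the right.

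All 12 tight junction genes were lower in both knockout-labelled libraries than in both wild-type libraries, against 32.1% of all tested genes. Cldn8, Marveld3, Tjp1 and Cgn passed the filter only through the wild-type libraries. For these 4 the position was fixed in advance, so the count of 12 cannot be weighed against that share. Of the 12, Cldn3, F11r and Tjp1 passed the test. The claudins Cldn3, Cldn4 and Cldn7, the membrane proteins that form the seal, were the most abundant. Cldn3 was at 15.5 and 19.9 FPKM in the knockout-labelled libraries, and at 288 and 115 FPKM in the wild-type libraries. It fell by 3.30 in mean log2(FPKM + 1) (SE 0.51, n = 2 each; limma, adjusted p = 0.036), and its wild-type mean was 11.4 times the mean of the knockout-labelled libraries. Cldn4, which tightens the paracellular path to sodium, was at 21.3 and 17.4 FPKM in the knockout-labelled libraries and at 427 and 111 FPKM in wild-type (difference -3.43, SE 0.72; limma, adjusted p = 0.053). Cldn7, which also sits along the lateral membrane and binds Epcam, was at 23.5 and 27.1 FPKM in the knockout-labelled libraries and at 524 and 106 FPKM in wild-type (difference -3.18, SE 0.84; limma, adjusted p = 0.077). Wild-type libraries 1 and 2 were far apart in both genes, and neither passed although the groups did not overlap.

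The order of the claudins differed between libraries. Cldn7 stood highest in both knockout-labelled libraries and in wild-type library 1, while Cldn3 stood highest in wild-type library 2. The ratio of Cldn7 to Cldn3 in FPKM was 1.51 and 1.36 in the knockout-labelled libraries and 1.82 and 0.92 in wild-type. Cldn1, a claudin of the epidermal and mammary barrier, was at 4.50 and 3.37 FPKM in the knockout-labelled libraries and at 103 and 6.14 FPKM in wild-type. Its difference of -2.47 had a 95% interval of -6.41 to 1.47, with wild-type library 1 at 16.7 times wild-type library 2, the widest gap among the 37 genes. Cldn8, a claudin of tight epithelia, was low throughout, at 0.29 and 0.86 FPKM in the knockout-labelled libraries and at 5.70 and 1.84 FPKM in wild-type.

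F11r encodes JAM-A, an immunoglobulin-type adhesion molecule of tight junctions that endothelial cells and leukocytes carry too. It was at 9.62 and 9.02 FPKM in the knockout-labelled libraries and at 93.7 and 45.5 FPKM in wild-type, and fell by 2.68 (SE 0.41; limma, adjusted p = 0.035). The MARVEL-domain proteins occludin (Ocln), tricellulin (Marveld2) and Marveld3 span the membrane beside the claudins, tricellulin where the corners of cells meet. Their levels were between 0.78 and 2.06 FPKM in the knockout-labelled libraries and between 4.04 and 18.3 FPKM in wild-type. The differences were -1.92 for Ocln, -2.04 for Marveld2 and -2.53 for Marveld3, and none passed.

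The scaffold genes were at low levels. Tjp1, which encodes the ZO-1 protein that links claudins to actin, was at 0.22 and 0.35 FPKM in the knockout-labelled libraries and at 2.44 and 1.49 FPKM in wild-type. It fell by 1.19 (SE 0.23; limma, adjusted p = 0.048), and it passed the filter only through the wild-type libraries. The call of Tjp1 ended with a pseudocount of 0.1 or 5 (adjusted p = 0.052 and 0.060). Cgn, encoding cingulin, which ties tight junctions to myosin, was at 0.19 and 0.23 FPKM in the knockout-labelled libraries and at 4.92 and 1.13 FPKM in wild-type. Tjp3, the ZO-3 gene, stood apart from these, at 2.97 and 3.13 FPKM in the knockout-labelled libraries and 6.77 and 3.72 FPKM in wild-type (difference -0.58, 95% interval -1.51 to 0.35).

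Among the 8 adherens junction and adhesion genes, Pvrl2, Ctnna1 and Ctnnd1 fell. Both knockout-labelled libraries were below both wild-type libraries in all 8, of which 7 were tested, against 32.1% of all tested genes. Pvrl2 encodes nectin-2, a calcium-independent adhesion molecule that is not limited to epithelia and is a ligand for receptors of T and NK cells. It was at 2.78 and 2.97 FPKM in the knockout-labelled libraries and at 20.9 and 20.4 FPKM in wild-type. Its wild-type libraries were the closest of all 37 genes, with a ratio of 1.03, and it fell by 2.48 (SE 0.20; limma, adjusted p = 0.024). Without any one library its difference stayed between -2.52 and -2.45.

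Cdh1, the gene of E-cadherin, the main adhesion receptor of epithelial cells, did not pass. It was at 7.98 and 9.68 FPKM in the knockout-labelled libraries and at 126 and 20.2 FPKM in wild-type, lower in both but with wild-type library 1 at 6.22 times wild-type library 2. Its difference was -2.41 (95% interval -5.06 to 0.25; limma, adjusted p = 0.15), and it was -1.12 without wild-type library 1 and -3.69 without wild-type library 2.

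The catenins, which sit on the cadherin tail, did not have like values. Ctnna1, for alpha-catenin, which carries the link to actin, was at 12.8 and 15.0 FPKM in the knockout-labelled libraries and at 70.0 and 40.7 FPKM in wild-type, a fall of 1.88 (SE 0.33; limma, adjusted p = 0.042). Ctnnd1, for p120-catenin, which keeps cadherin at the membrane, was at 0.79 and 1.0 FPKM in the knockout-labelled libraries and at 13.0 and 5.36 FPKM in wild-type, a fall of 2.31 (SE 0.46; limma, adjusted p = 0.049). Ctnnb1, for beta-catenin, which also carries the Wnt signal to the nucleus in many cell types, was at 51.5 and 53.4 FPKM in the knockout-labelled libraries and at 71.8 and 61.5 FPKM in wild-type. Its difference was -0.34 with a 95% interval of -0.84 to 0.17 (limma, adjusted p = 0.24), a narrower interval than that of any other tested gene of the list. In FPKM, which is scaled by length, the ratio of Cdh1 to Ctnnb1 was 0.16 and 0.18 in the knockout-labelled libraries and 1.75 and 0.33 in wild-type, and that of Ctnna1 to Ctnnb1 was 0.25 and 0.28 against 0.98 and 0.66. The ratio of Ctnna1 to Cdh1, at 1.60 and 1.55 in the knockout-labelled libraries, lay between its values of 0.56 and 2.01 in wild-type. The difference between one gene's change and another's was not tested.

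Epcam, a surface adhesion molecule of epithelia that stabilises claudins, was the most abundant of the 37 genes in every library, at 116 and 117 FPKM in those labelled knockout and at 1351 and 385 FPKM in wild-type (difference -2.62, SE 0.66; limma, adjusted p = 0.071). Its ratio to Krt8 was 0.46 and 0.45 in the knockout-labelled libraries and 0.29 and 0.41 in wild-type. Pvrl4, the nectin-4 gene of epithelia, was at 0.79 and 1.33 FPKM in the knockout-labelled libraries and 7.70 and 2.53 FPKM in wild-type. Pvrl1, for nectin-1, stayed under 1 FPKM in all 4 libraries and was not tested.

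None of the 4 tested desmosome genes passed (limma; 1, Jup, had an unadjusted p under 0.05), and 5 of the 9 were not tested. Jup, for plakoglobin, a catenin shared by desmosomes and adherens junctions, was at 6.75 and 6.18 FPKM in the knockout-labelled libraries and at 64.2 and 21.9 FPKM in wild-type (difference -2.37, SE 0.57; limma, adjusted p = 0.066). The cadherin Dsg2 was at 0.67 and 0.93 FPKM in the knockout-labelled libraries and 11.9 and 2.06 FPKM in wild-type. The plakophilin Pkp2, which anchors the desmosomal plaque, was at 1.18 and 0.95 FPKM in the knockout-labelled libraries and 12.7 and 2.40 FPKM in wild-type. Both were lower without overlap and did not pass. By position, 3 of the 4 tested desmosome genes were lower, against 32.1% of all tested genes. Of these, Dsg2 passed the filter only through the wild-type libraries.

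Pkp3, the other plakophilin tested, was placed otherwise. It was at 18.7 and 19.7 FPKM in the knockout-labelled libraries, between its values of 46.0 and 13.3 FPKM in wild-type (difference -0.36, 95% interval -2.16 to 1.43). Its sign turned on 1 library: the difference was 0.49 without wild-type library 1 and -1.22 without wild-type library 2. Against plakoglobin, its ratio in FPKM was 2.77 and 3.19 in the knockout-labelled libraries and 0.72 and 0.61 in wild-type. The untested desmosome genes were the cadherin Dsc2, the plakins Dsp, Ppl and Evpl that reach the keratin filaments, and Pkp1. They were at 0.13 to 0.67 FPKM in the knockout-labelled libraries, and at 0.93 to 6.36 FPKM in wild-type library 1 and 0.15 to 0.74 FPKM in wild-type library 2. Dsc2, Evpl and Pkp1 overlapped between groups.

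**Figure D3:**
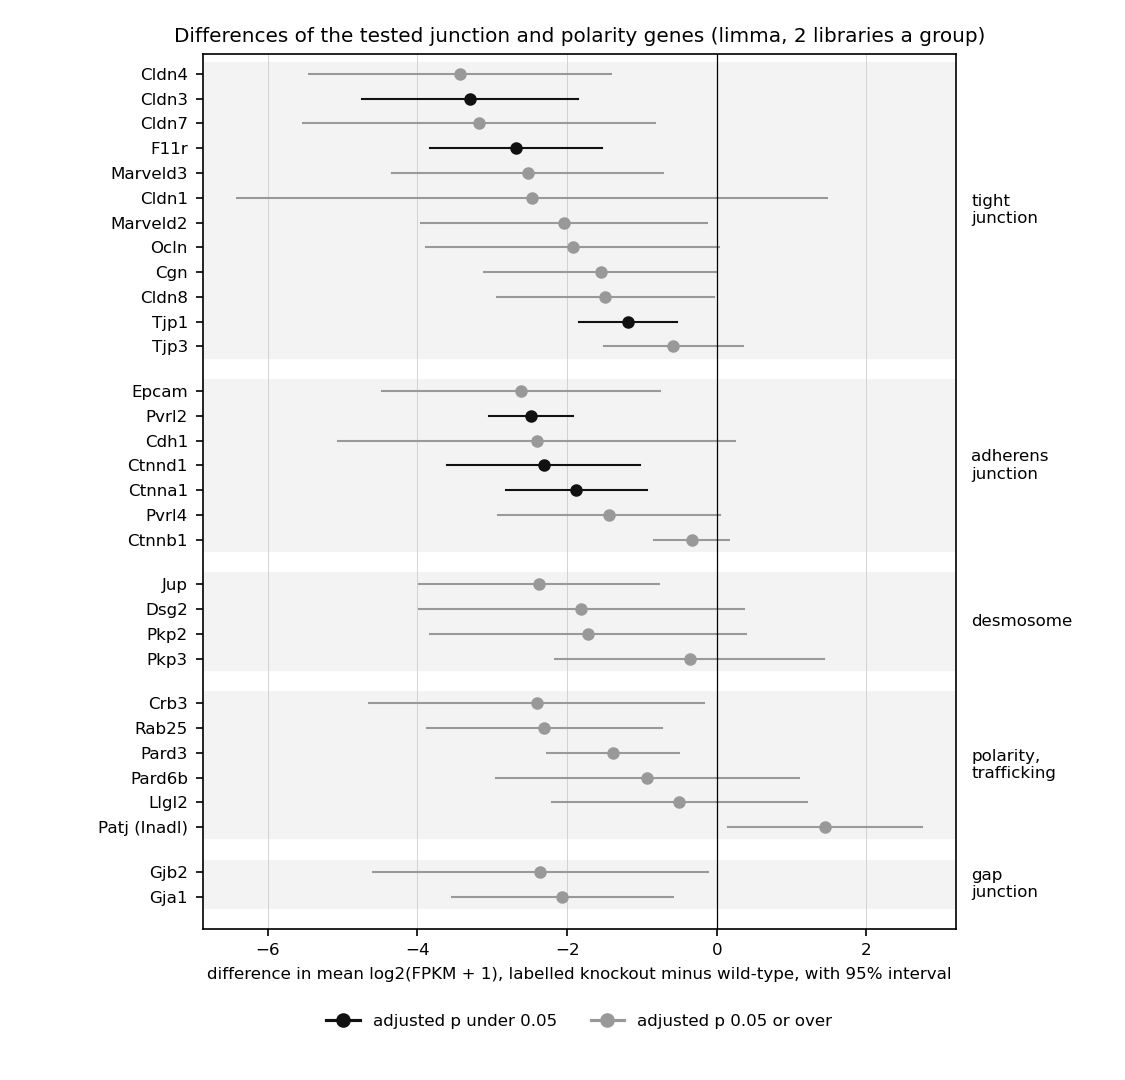
Difference in mean log2(FPKM + 1), labelled knockout minus wild-type, with its 95% interval from limma, for the 31 tested genes by junction type (n = 2 libraries a group); black marks an adjusted p under 0.05. Tight junction and adherens junction genes hold the 6 that passed, Ctnnb1 has the narrowest interval, and Patj is the gene to the right of 0.

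The 6 polarity and trafficking genes differed among themselves and none passed (limma; 3 lower and 1 higher at an unadjusted p under 0.05). Crb3, the Crumbs protein of the apical membrane, was at 5.76 and 5.27 FPKM in the knockout-labelled libraries and at 71.9 and 15.4 FPKM in wild-type (difference -2.41, SE 0.80; limma, adjusted p = 0.11). Rab25, a small GTPase of apical recycling in epithelia, was at 5.14 and 4.59 FPKM in the knockout-labelled libraries and at 47.0 and 16.4 FPKM in wild-type (difference -2.30, SE 0.56; limma, adjusted p = 0.066). Pard3, the Par3 scaffold that positions tight junctions, was at 0.42 and 0.34 FPKM in the knockout-labelled libraries and at 3.65 and 1.80 FPKM in wild-type (difference -1.39, SE 0.31; limma, adjusted p = 0.060). In these 3 genes both knockout-labelled libraries were lowest, and Pard3 passed the filter only through the wild-type libraries. By position, 3 of the 6 were below, 1 was above and 2 overlapped, against 32.1% below and 39.3% above among all tested genes.

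Patj, a PDZ scaffold that joins the Crumbs complex to tight junctions, had values the other way. It was at 8.89 and 8.97 FPKM in the knockout-labelled libraries and at 4.45 and 1.44 FPKM in wild-type, a difference of 1.44 (SE 0.46, 95% interval 0.14 to 2.74) that did not pass (limma, adjusted p = 0.11). It was higher in 2 of 2 knockout-labelled libraries, and stayed positive in the 14 alternative settings that kept the scale of all genes, at 0.84 to 2.02. The ratio of Patj to Crb3 in FPKM was 1.54 and 1.70 in the knockout-labelled libraries and 0.06 and 0.09 in wild-type. Lymphocyte markers were higher in the same libraries, and their part in the value of Patj was not tested.

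Llgl2, a basolateral protein of the Scribble group, was at 5.48 and 6.42 FPKM in the knockout-labelled libraries, between its wild-type values of 16.0 and 4.67 FPKM (difference -0.50, 95% interval -2.20 to 1.20). Pard6b, the Par6 adaptor of atypical protein kinase C, was at 0.73 and 1.06 FPKM in the knockout-labelled libraries and at 6.02 and 0.84 FPKM in wild-type, also overlapping. Without wild-type library 1 the differences were 0.29 for Llgl2 and 0.035 for Pard6b, so their direction turned on that library.

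The 2 gap junction genes, which encode channels between neighbouring cells, were lower without overlap, against 32.1% of all tested genes. Neither passed (limma, both had an unadjusted p under 0.05). Gja1, for connexin 43, which myoepithelial cells and fibroblasts carry too, was at 7.66 and 9.26 FPKM in the knockout-labelled libraries and at 62.1 and 23.7 FPKM in wild-type (difference -2.07, SE 0.53; limma, adjusted p = 0.072). Gjb2, for connexin 26 of luminal cells, was at 2.19 and 2.47 FPKM in the knockout-labelled libraries and at 34.9 and 7.11 FPKM in wild-type (difference -2.36, SE 0.80; limma, adjusted p = 0.12).

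Next, each gene was set against the luminal keratins of its own library, as percent of the geometric mean of Krt8, Krt18 and Krt19. That mean was 121 and 131 FPKM in the knockout-labelled libraries and 2180 and 441 FPKM in wild-type. On this scale the 37 genes no longer stood lower as a list: 4 were lower in both knockout-labelled libraries than in both wild-type libraries, 19 were higher and 14 overlapped. Of the 31 tested genes 4 were lower and 16 higher, against 0.763% and 85.9% of all tested genes, whose median difference relative to keratins was 3.03, where the difference of the keratin mean itself was -2.95. The median difference of the 31 genes relative to keratins was 0.91. Both medians are of log2(FPKM + 1) values, in which the pseudocount holds low genes near 0 before the keratin difference is subtracted. Marveld3 and Cgn, lower as percent of keratin, had differences of 0.42 and 1.39 there. The 0.91 is therefore not a fold relative to keratins.

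The 4 lower genes were all of tight junctions. Cldn4 was at 17.6 and 13.3% of keratin in the knockout-labelled libraries and at 19.6 and 25.2% in wild-type, and Cldn7 at 19.4 and 20.7% against 24.0 and 24.1%. Marveld3 was at 0.64 and 0.72% in the knockout-labelled libraries and at 0.84 and 1.12% in wild-type, and Cgn at 0.15 and 0.18% against 0.23 and 0.26%. Of the 6 genes that passed in FPKM, Cldn3, F11r, Tjp1, Ctnnd1 and Pvrl2 overlapped on this scale. Ctnna1, at 10.6 and 11.4% of keratin in the knockout-labelled libraries and 3.21 and 9.23% in wild-type, was higher.

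Cdh1, lower in FPKM, was higher relative to keratins, at 6.59 and 7.41% in the knockout-labelled libraries and 5.77 and 4.59% in wild-type, and Gjb2 was at 1.80 and 1.89% against 1.60 and 1.61%. Among the genes farthest above were several already placed apart in FPKM. Patj was at 7.34 and 6.86% of keratin in the knockout-labelled libraries and at 0.20 and 0.33% in wild-type, Ctnnb1 at 42.5 and 40.8% against 3.29 and 13.9%, Pkp3 at 15.4 and 15.1% against 2.11 and 3.02%, and Llgl2 at 4.52 and 4.91% against 0.73 and 1.06%. When all genes were refitted relative to keratins, 1 of the 31 genes, Patj, passed, as higher (limma, adjusted p = 0.031), against 23.6% of all tested genes.

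**Figure D4:**
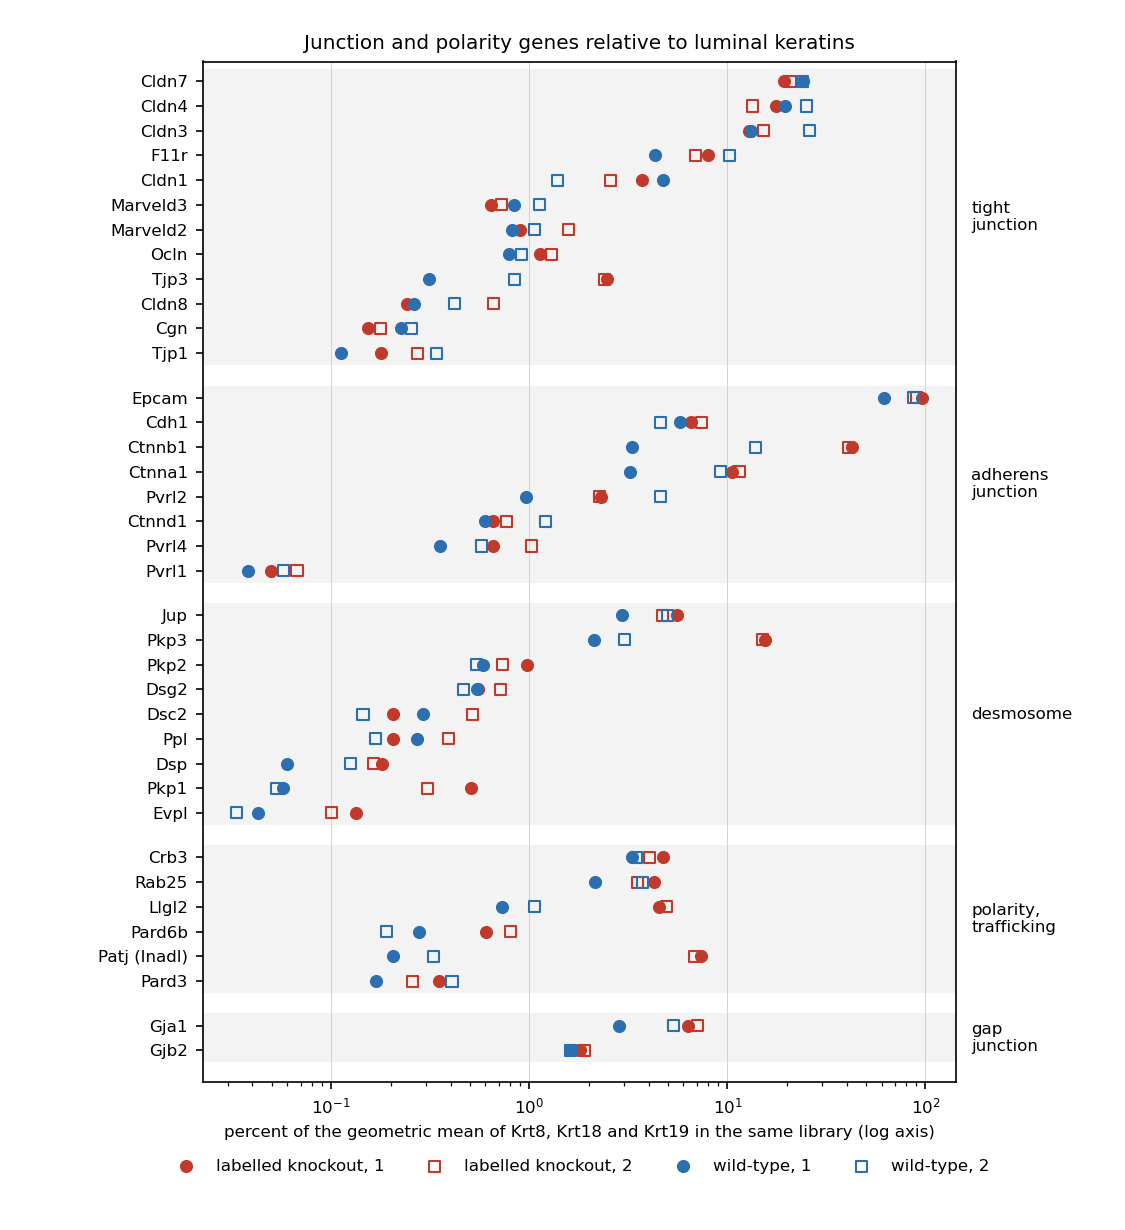
Each of the 37 genes as percent of the geometric mean of Krt8, Krt18 and Krt19 in the same library (log axis); red marks the knockout-labelled libraries and blue the wild-type libraries, circles library 1 and squares library 2. The red points lie right of both blue ones in 19 genes, with the widest gaps in Patj, Ctnnb1, Pkp3, Tjp3, Llgl2 and Pkp1, and left of both in Cldn4, Cldn7, Marveld3 and Cgn.

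Other genes of the same structures were read from lists of 69 genes, of which 43 were tested. Of the 43, 10 passed the filter only through the wild-type libraries, Mllt4 and Amotl1 among them. There were 4 that fell, none rose and 39 did not pass, against 6.99% lower and 9.51% higher among all tested genes. Their median difference was -0.96, against 0.08 for all tested genes. By position, 28 of 43 were lower in both knockout-labelled libraries than in both wild-type libraries, against 32.1% of all tested genes, and 6 were higher, against 39.3%. Those that fell were the adherens junction genes Lima1 (an actin-binding LIM protein), Wtip (a LIM protein of the Ajuba family) and Mllt4 (afadin, which binds nectins), and Amotl1, an angiomotin of tight junctions. Wtip was at 1.07 and 1.31 FPKM in the knockout-labelled libraries and at 12.3 and 10.5 FPKM in wild-type, and fell by 2.50 (SE 0.23; limma, adjusted p = 0.024). Lima1 was at 2.20 and 2.00 FPKM in the knockout-labelled libraries and at 17.2 and 10.1 FPKM in wild-type, and Mllt4 at 0.99 and 0.85 FPKM against 6.40 and 4.31 FPKM. Amotl1 was at 0.13 and 0.07 FPKM in the knockout-labelled libraries and at 2.65 and 1.34 FPKM in wild-type, and its call ended with a pseudocount of 5 (adjusted p = 0.069).

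By structure, the 13 tested genes among other tight junction genes had a median difference of -1.41 and the 10 tested adherens junction genes of -1.56. Both knockout-labelled libraries were lower in 13 and in 9 of them, against 32.1% of all tested genes. Of these, 6 and 3 passed the filter only through the wild-type libraries. Their position was fixed in advance, so the 2 counts cannot be weighed against that share. Cldn2, a claudin that forms cation pores, was at 0.34 and 0.15 FPKM in the knockout-labelled libraries and at 5.15 and 2.07 FPKM in wild-type. Pvrl3, for nectin-3, was at 1.11 and 0.91 FPKM in the knockout-labelled libraries and at 4.84 and 2.83 FPKM in wild-type. Neither passed.

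The 15 tested genes among the other polarity genes were close to all tested genes. Their median difference was 0.12, against 0.08 for all, 4 were lower and 6 higher in both knockout-labelled libraries, against 32.1% and 39.3%, and none passed (limma; 1 lower at an unadjusted p under 0.05). Prkcz, an atypical protein kinase C of the Par complex, was at 4.07 and 3.74 FPKM in the knockout-labelled libraries and 2.57 and 1.18 FPKM in wild-type, Pard6a at 5.14 and 5.10 FPKM against 3.34 and 3.05 FPKM, and Llgl1 at 6.41 and 8.19 FPKM against 5.48 and 3.27 FPKM. Ap1m2, an adaptor subunit of epithelial basolateral sorting, was at 3.91 and 2.94 FPKM in the knockout-labelled libraries and at 33.3 and 10.7 FPKM in wild-type. Among the other gap junction genes, Gja4 had a difference of -0.95 and Gjc1 of -0.86, and Perp, the tested desmosome gene, one of -1.77; none passed (limma; 0 at an unadjusted p under 0.05).

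Of 16 transcription and splicing factors known to act on junction genes 14 were tested, 4 of them only through the wild-type libraries. Of the 14, 1 rose and 1 fell, shares near the 9.51% higher and 6.99% lower of all tested genes (limma, 7 lower and 1 higher at an unadjusted p under 0.05). By position, both knockout-labelled libraries were below both wild-type libraries in 11 of the 14 and above in 1, against 32.1% and 39.3% of all tested genes. The median difference of the 14 was -1.31, against 0.08. Zeb1, a repressor of Cdh1 and Crb3 that T cells express as well, was at 6.99 and 6.49 FPKM in the knockout-labelled libraries and at 0.02 and 0.82 FPKM in wild-type, and rose by 2.51 (SE 0.36; limma, adjusted p = 0.034); it passed the filter only through the knockout-labelled libraries. Lymphocyte markers were higher in the same libraries, and their part in the level of Zeb1 was not tested. Snai1, a repressor of the same genes, was at 0.45 and 0.53 FPKM in the knockout-labelled libraries and at 1.75 and 1.52 FPKM in wild-type, and fell by 0.82 (SE 0.16; limma, adjusted p = 0.049); it passed the filter only through the wild-type libraries. The call of Snai1 ended with a pseudocount of 0.1 or 5 (adjusted p = 0.065 and 0.052), and that of Zeb1 with 0.1 (adjusted p = 0.077). Snai2 was at 1.34 and 0.62 FPKM in the knockout-labelled libraries and 7.05 and 4.29 FPKM in wild-type (limma, adjusted p = 0.051). Ehf, an epithelial ETS factor, was at 2.59 and 2.39 FPKM in the knockout-labelled libraries and 25.0 and 10.1 FPKM in wild-type (limma, adjusted p = 0.054).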

How the data were processed

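Libraries were made from total RNA of sorted cells with a low-input Clontech SMARTer mRNA kit, per the labels' protocols, and the genome build was mm9, per the submitters' processing notes. Not given in the sources used here were the aligner, the quantification tool and the annotation. The authors' deposited table holds 1 FPKM value per gene and library; its header names no unit, so the unit was read from the values, whose column totals differ and whose low values step in ratios of whole numbers between libraries (50.42 to 60.42% of low genes, tolerance 0.2%, against 0.71 to 0.85% off those steps). Of 24043 rows, 92 spike-in rows, all at 0, were left out.

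Groups were taken from the sample titles. Log2(FPKM + 1) values of 11138 genes that reached 1 FPKM in 2 or more libraries were compared with limma 3.58.1 in R 4.3.3 (trended, robust prior; genotype the sole term), and p-values were Benjamini-Hochberg adjusted over all of them. The pseudocount of 1 understates changes of low genes. With 2 libraries a group an exact test over 3 splits cannot go below p = 0.333, so calls rest on the model. The fit was tested on simulated data. Alternatives covered the pseudocount, filter, scaling, prior, library weights, a replicate block and each library left out. The genes and lists were chosen with earlier results of these data known. Named were all 37 genes, Kdm1a, called genes of the other junction lists and up to 4 of lowest p per list among those averaging 1 FPKM or more in a group; markers at 0 were named after their values were seen. Some genes that this rule names are not reported here. Symbols were used as in the file; Patj and Adgre1 were matched by older names, and Trbc1 was not matched. RefSeq promoters (GRCm38.p6) were matched by current symbol.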

Additional observations from a re-analysis of the deposited data

How the results depend on the processing

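The number of genes called depended on which libraries were used and on the filter. Leaving out 1 library in turn gave 0 to 7912 of all tested genes, 0 to 31 of the junction and polarity genes, and 0 to 32 of the other junction genes (limma). The 0 came without either knockout-labelled library, where 1385 and 1346 of all tested genes, and 6 and 2 of the other junction genes, had an unadjusted p under 0.05. With no filter on low values 1 gene in all was called, 0 of the 37 (14 at an unadjusted p under 0.05) and 0 of the other junction genes (11). Library weights called 15 of the 31, all lower, against 8.57% of all tested genes, and 10 of the other junction genes. A common total per library called 3 of the 31, against 5.54% of all tested genes lower, and the filter at 5 FPKM 2 of the other junction genes. With a replicate block 501 genes in all (1.39% lower and 3.11% higher), 4 of the 31, all lower, and 1 of the other junction genes were called. The labels give same-numbered libraries only a number in common. The correlation of their deviations was -0.06, which cannot show whether they shared a preparation. Changes of pseudocount, prior, median centring and quantile normalization gave 4 to 6 of the 31, against 6.07 to 7.61% of all tested genes lower.

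Relative to luminal keratins 1 of the 31 and 1 of the other junction genes were called, and the median difference of the 31 turned to 0.91. The differences of genes called lower also turned positive without passing, for F11r (0.26), Tjp1 (1.76), Ctnna1 (1.07), Ctnnd1 (0.63), Pvrl2 (0.46), Amotl1 (1.53), Lima1 (0.75), Mllt4 (1.24), Wtip (0.44), Snai1 (2.13) and the basal marker Acta2 (1.49). This scaling subtracts the keratins' own difference, -2.95, from every gene, after the pseudocount has held the differences of low genes near 0. For low genes its sign need not be that of their percent of keratin. As percent of keratin Amotl1 was lower, at 0.11 and 0.05% in the knockout-labelled libraries and 0.12 and 0.30% in wild-type, and Tjp1 overlapped. Without wild-type library 1 the sign turned for Pkp3, Pard6b and Llgl2, whose differences with 1 library left out ran from -1.22 to 0.49, from -1.89 to 0.035 and from -1.29 to 0.29. Apart from these and the scaling to keratins, the direction of the 31 genes held in all settings run. The calls of Cldn3, F11r and Pvrl2 ended among the settings on the FPKM scale with no filter and without either knockout-labelled library, and those of Tjp1, Ctnna1 and Ctnnd1 also with a common total (adjusted p = 0.058, 0.055 and 0.058) and the block (0.073, 0.060 and 0.060). Ctnnd1 was also lost with a pseudocount of 5 (0.073) and quantile normalization (0.051), and Tjp1 with pseudocounts of 0.1 and 5, quantile normalization, the plain prior and library weights (0.052 to 0.060). Genes under 1 FPKM rest on few reads, and their differences are held near 0 by the pseudocount.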
